A study of Mus musculus with 8 samples.

Results

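The 8 genes described here are G6pc, Pck1, Fbp1, Pcx, Ppargc1a, Pklr, Slc2a2 and Khk, which serve glucose production by the liver and its entry and use of sugar. They were chosen by name, and each symbol matched 1 row in a table of 46517 Ensembl genes. All 8 passed the filter on low counts, as did 13278 genes in total. Whole liver was taken from male C57BL/6 mice 31 weeks old, after a NASH diet of 25 weeks that began at 6 weeks of age and a fast of 16 hours. The MøFoxO1-KO group held 4 mice (KO26, KO27, KO28 and KO29) with floxed FoxO1 alleles (loxP/loxP) and a Lyz2-Cre transgene, and the WT group held 4 littermates (WT22, WT23, WT24 and WT25) that carry the floxed alleles without Cre. The Lyz2 promoter drives Cre in myeloid cells, so hepatocytes, where most of the 8 genes act, were not the cells meant to lose FoxO1. Polyadenylated RNA was sequenced, and the comparison asked whether these liver genes differed in level between the genotypes on the NASH diet.

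In the fasted liver, pyruvate, lactate, amino acids and glycerol are turned into glucose. Pcx makes oxaloacetate from pyruvate, Pck1 turns it into phosphoenolpyruvate, Fbp1 takes the phosphate from fructose bisphosphate and G6pc frees glucose from glucose 6-phosphate. Glucagon, acting through cyclic AMP, and the coactivator Ppargc1a raise this program, while insulin lowers it in hepatocytes through FoxO1, which insulin signaling removes from the nucleus. In the fed liver, glucose enters and leaves through the transporter Slc2a2, Pklr closes glycolysis by making pyruvate, and Khk commits fructose to use. Sugar raises Pklr through the carbohydrate response element binding protein (Mlxipl).

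Total counts were between 15253218 and 18025481 per mouse, and mitochondrial genes took 4.163 to 6.332% of them. On the first principal component (37.7% of the variance) WT23 stood apart at -50.37, the other WT mice were between -15.78 and -5.118, and the MøFoxO1-KO mice between 7.957 and 31.99. Foxo1 had 404 ± 73.9 normalized counts in WT livers and 359 ± 73.4 in MøFoxO1-KO livers (SD, n = 4 each, P = 0.343 by exact permutation). The exons deleted by Cre are not given in the sources used here, and RNA of hepatocytes enters the whole-liver value, so Foxo1 counts are no direct check of the deletion. Hepatocyte markers were abundant in every mouse, with a summed level of 1227348 to 1693292 normalized counts in WT livers and 1439052 to 2163693 in MøFoxO1-KO livers, and 9 of the 11 tested were higher in MøFoxO1-KO mice (median log2 fold change 0.39). Of the 16 macrophage markers, 13 were higher (median 0.80), with a summed level of 4537 to 8406 against 5720 to 23034, and none was at 0 in all mice. At an unadjusted P under 0.05, 7 of them were higher and 2 lower, beside 8.65% and 8.06% of all tested genes. The 2 lower were Gpnmb (log2 fold change -4.13, adjusted P = 0.0382) and Trem2 (-3.88, adjusted P = 0.0983). Gpnmb was the only macrophage marker to pass 0.05 by edgeR after Benjamini-Hochberg adjustment. Of the 7 higher, Marco (5.18, adjusted P = 0.087) and Timd4 (2.08, adjusted P = 0.0968) had the smallest P. These macrophage markers were named after their values were seen. Of 8 markers of tissues outside the liver, Prss1, Cpa1, Umod and Slc34a1 had no counts in any mouse. Only Cela1 (log2 fold change 1.40, adjusted P = 0.0851) and Fabp2 (0.24, adjusted P = 0.457) of these 8 were tested by edgeR. The 8 summed to 2484 to 3447 normalized counts in WT livers and 3217 to 4735 in MøFoxO1-KO livers. The highest raw count of 1 of these genes in 1 mouse was 3417, so the sum rests on few of them. In whole tissue, fewer cells of a type and less RNA per cell cannot be told apart. The part of these differences in the results given here was not tested.

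The start regions of 4 of the 8 genes are shown, because their control by fasting, insulin or sugar is well described. Each window runs from 250 bases before to 50 bases after the RefSeq start on GRCm38.p6, written 5′ to 3′ on the strand of the gene. Capitals mark matches, on either strand, to the core of the cyclic AMP response element (ACGTCA), the core of the insulin response sequence (CAAAACA), the FoxO consensus (GTAAACA), the E-box (CACGTG), the carbohydrate response element (CACGNG and CNCGTG with 5 bases between) and the TATA box (TATAAA). A match is a description of letters, and binding was not measured. The Pck1 window lies at chr2:173152823-173153122 on the plus strand.

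Pck1: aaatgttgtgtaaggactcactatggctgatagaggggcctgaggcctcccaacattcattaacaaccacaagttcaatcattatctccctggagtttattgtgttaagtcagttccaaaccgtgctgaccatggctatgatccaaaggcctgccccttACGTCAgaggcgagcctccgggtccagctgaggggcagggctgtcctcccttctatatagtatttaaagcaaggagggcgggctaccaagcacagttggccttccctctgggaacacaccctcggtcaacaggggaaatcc

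Its cyclic AMP response element core starts 91 bases before the RefSeq start. The same core starts 50 bases before the start of Ppargc1a, whose window lies at chr5:51567676-51567975 on the minus strand.

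Ppargc1a: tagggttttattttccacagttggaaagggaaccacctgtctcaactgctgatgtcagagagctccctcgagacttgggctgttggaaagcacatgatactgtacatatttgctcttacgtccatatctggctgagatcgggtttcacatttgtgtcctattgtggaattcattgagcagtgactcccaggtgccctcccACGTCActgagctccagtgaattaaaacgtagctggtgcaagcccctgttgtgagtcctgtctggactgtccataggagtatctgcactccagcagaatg

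The G6pc window lies at chr11:101367466-101367765 on the plus strand. It holds the insulin response core on its opposite strand (TGTTTTG in capitals, from 174 to 168 bases before the start) and a TATA box that begins 29 bases before it.

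G6pc: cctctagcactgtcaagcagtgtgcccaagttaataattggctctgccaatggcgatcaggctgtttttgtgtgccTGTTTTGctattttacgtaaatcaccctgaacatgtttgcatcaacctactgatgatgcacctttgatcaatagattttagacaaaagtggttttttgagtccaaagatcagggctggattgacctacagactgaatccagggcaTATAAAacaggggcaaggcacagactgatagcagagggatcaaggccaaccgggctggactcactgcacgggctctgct

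RefSeq gives Pklr a pair of starts. The downstream window, at chr3:89136373-89136672 on the plus strand, holds the carbohydrate response element from 170 to 154 bases before its start and a TATA box 31 bases before it.

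Pklr: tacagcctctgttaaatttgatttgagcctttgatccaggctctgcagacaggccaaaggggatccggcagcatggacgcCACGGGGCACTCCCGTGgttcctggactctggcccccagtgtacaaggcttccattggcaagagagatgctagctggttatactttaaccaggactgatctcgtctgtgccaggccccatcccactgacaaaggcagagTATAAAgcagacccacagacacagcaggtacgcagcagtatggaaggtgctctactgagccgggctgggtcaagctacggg

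Over all 32851 RefSeq windows of this length, 7.51% held the cyclic AMP response element core, 6.28% the insulin response core, 13.6% the TATA box and 7.15% the E-box. The carbohydrate response element was in 15 windows (0.0457%). The E-box was in the windows of Khk, 71 bases before the start, and of the upstream start of Pcx, 248 bases before it. The FoxO consensus was in 3.65% of all windows and in none of the 10 windows of the 8 genes, and only the letters of these windows were searched.

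None of the 8 genes passed the threshold between MøFoxO1-KO and WT livers, which was an adjusted P under 0.05 with an absolute log2 fold change over 1.5 in edgeR's quasi-likelihood test. Over all tested genes 25 of 13278 (0.188%) did. Log2 fold changes of the 8 genes ran from -0.80 for Pklr to 0.30 for Khk, with 6 below 0 and a median of -0.26, while 51.7% of all tested genes were below 0 and their median was -0.01. Ppargc1a alone had an unadjusted P under 0.05, which 16.7% of all tested genes had (8.06% lower and 8.65% higher in MøFoxO1-KO livers). No gene of the 8 separated the groups, against 9.71% of tested genes whose groups did not overlap. Normalized counts, used throughout, are counts scaled by TMM to the mean library size. They were also compared by two-sided exact permutation, where 0.0286 is the smallest P that 4 mice per group can give. None of the 8 was called by DESeq2, which called 1.22% of the genes it adjusted (177 of 14504), or by limma-voom, which called 0.0979%.

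**Figure D1:**
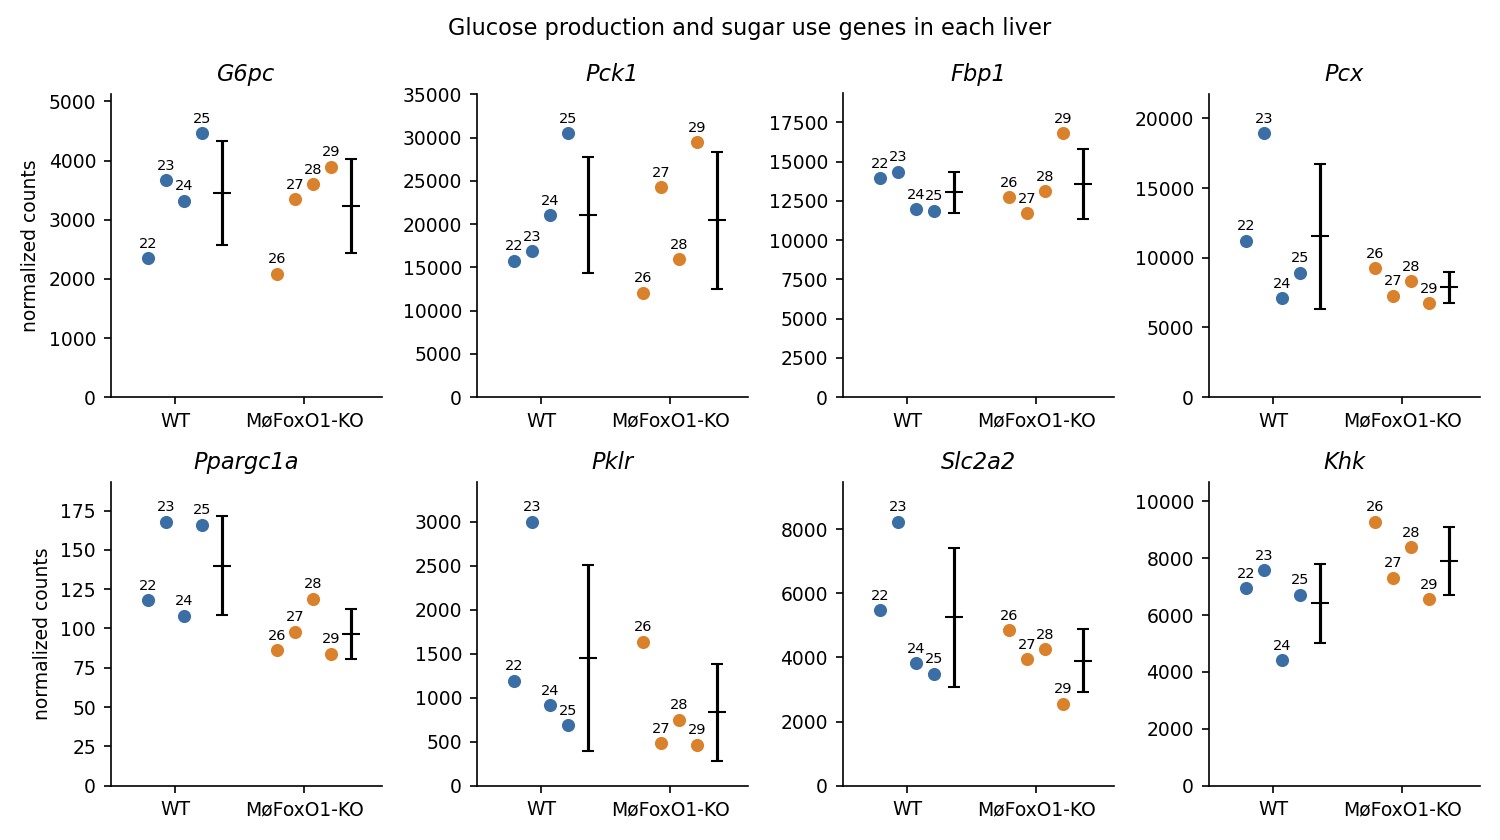
Normalized counts (vertical axis, from 0) of the 8 genes in each of the 4 WT and 4 MøFoxO1-KO livers, with the number of the mouse at its point and the group mean and SD as bars. The groups overlap in every panel, and WT23 is the highest point for Pcx, Ppargc1a (just above WT25), Pklr and Slc2a2.

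G6pc (ENSMUSG00000078650, GRCm38 chromosome 11, 101367561 to 101377903) codes for the catalytic subunit of glucose 6-phosphatase, the last enzyme of glucose production. WT22, WT23, WT24 and WT25 had 2349, 3664, 3323 and 4464 normalized counts of G6pc, and KO26, KO27, KO28 and KO29 had 2090, 3343, 3599 and 3896. WT25 was highest and KO26 lowest, and 3 mice of each group lay between 2349 and 3896. The group means were 3450 ± 876 and 3232 ± 794 (SD, n = 4 each, P = 0.714 by exact permutation). The log2 fold change was -0.09 (SE 0.23, 95% interval -0.61 to 0.42, edgeR, Benjamini-Hochberg adjusted P = 0.871), an interval that runs from 0.657 to 1.34 times the WT level. Slc37a4, which carries glucose 6-phosphate to this enzyme, had 1984 ± 539 and 1869 ± 450 normalized counts (SD, n = 4 each), a log2 fold change of -0.09 with an interval of -0.58 to 0.41.

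Pck1 (ENSMUSG00000027513, chromosome 2, 173153048 to 173159273) is the cytosolic phosphoenolpyruvate carboxykinase, controlled mainly through its mRNA. Its normalized counts were 15768, 16850, 21016 and 30530 in WT22 to WT25 and 12061, 24246, 15976 and 29495 in KO26 to KO29. WT25 and KO29 were the highest mice and KO26 the lowest, and mice of the same genotype differed more than the group means. Those means were 21041 ± 6719 and 20444 ± 7887 (SD, n = 4 each, P = 0.886 by exact permutation), and the log2 fold change was -0.04 (SE 0.30, 95% interval -0.71 to 0.62, edgeR, Benjamini-Hochberg adjusted P = 0.958). Pck2, the mitochondrial form, was far scarcer at 120 ± 56.4 and 135 ± 31.4 normalized counts (SD, n = 4 each, log2 fold change 0.16, interval -0.58 to 0.91).

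Fbp1 (ENSMUSG00000069805, chromosome 13, 62864753 to 62888282, minus strand) is the liver fructose 1,6-bisphosphatase. It was the steadiest of the 8, with 13955, 14357, 11994 and 11875 normalized counts in WT22 to WT25 and 12749, 11722, 13139 and 16824 in KO26 to KO29. All mice but KO29 lay between 11722 and 14357. Means were 13045 ± 1294 and 13609 ± 2226 (SD, n = 4 each, P = 0.771 by exact permutation). Its log2 fold change was 0.06 (SE 0.15, edgeR, Benjamini-Hochberg adjusted P = 0.871), and the 95% interval of -0.27 to 0.39 was the narrowest of the 8. The sign turned to -0.06 without KO29.

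Pcx (ENSMUSG00000024892, chromosome 19, 4510472 to 4621752) is pyruvate carboxylase, which also refills the citric acid cycle. WT22 to WT25 had 11209, 18942, 7117 and 8942 normalized counts, and KO26 to KO29 had 9246, 7275, 8328 and 6746. WT23 and WT22 were above every MøFoxO1-KO mouse, while WT24 and WT25 fell among them. Means were 11553 ± 5203 and 7899 ± 1113 (SD, n = 4 each, P = 0.2 by exact permutation). The log2 fold change was -0.55 (SE 0.27, 95% interval -1.15 to 0.06, edgeR, Benjamini-Hochberg adjusted P = 0.347) and -0.20 without WT23. The mitochondrial pyruvate carrier, which brings pyruvate to Pcx, had 1571 ± 240 and 1503 ± 141 normalized counts of Mpc1 and 4528 ± 986 and 5816 ± 1303 of Mpc2 (SD, n = 4 each). Their log2 fold changes were -0.06 (interval -0.37 to 0.24) and 0.36 (interval -0.10 to 0.82).

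Ppargc1a (ENSMUSG00000029167, chromosome 5, 51454250 to 51567726, minus strand) codes for PGC-1α, the coactivator of gluconeogenic and mitochondrial genes. It was the scarcest of the 8, with 75 to 171 raw counts per mouse. Normalized counts were 118, 168, 108 and 166 in WT22 to WT25 and 86.3, 97.9, 119 and 84 in KO26 to KO29. KO28 was above WT22 and WT24, and the other 3 MøFoxO1-KO mice were below every WT mouse. Means were 140 ± 31.6 and 96.7 ± 15.8 (SD, n = 4 each), 0.69 times the WT level (P = 0.0857 by exact permutation). The log2 fold change was -0.53 (SE 0.21, 95% interval -0.99 to -0.07), with an unadjusted P of 0.0271 and a Benjamini-Hochberg adjusted P of 0.243 in edgeR. It stayed between -0.67 and -0.40 in 17 other fits, of which none had an adjusted P under 0.117. An unadjusted P under 0.05 was found in 11 of them. With 1 mouse left out, it was found only without WT22, WT24 or KO28 (edgeR). It was not found with 1 surrogate variable in the fit.

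Among the factors that work with PGC-1α at gluconeogenic promoters, Hnf4a, the nuclear receptor of hepatocyte identity, had 6302 ± 1019 and 5046 ± 573 normalized counts (SD, n = 4 each). Its log2 fold change was -0.32 (interval -0.65 to 0.01, edgeR, Benjamini-Hochberg adjusted P = 0.312). Crtc2, the coactivator of CREB that glucagon switches on, had 653 ± 83.8 and 675 ± 90.3 (log2 fold change 0.05, interval -0.25 to 0.34). Igfbp1, Irs2 and Pdk4, further targets of hepatocyte FoxO1, had fewer counts than G6pc or Pck1 in every mouse and varied between mice. Igfbp1, which binds insulin-like growth factors, had 127, 286, 791 and 310 normalized counts in WT22 to WT25 and 96.8, 174, 160 and 388 in KO26 to KO29 (log2 fold change -0.89, interval -2.09 to 0.31, edgeR, Benjamini-Hochberg adjusted P = 0.442). Irs2, an adaptor of the insulin receptor, had 72.6 ± 22.6 and 46.2 ± 8.49 (SD, n = 4 each, log2 fold change -0.65, interval -1.24 to -0.06, adjusted P = 0.259). Pdk4, the kinase that shuts pyruvate dehydrogenase in the fasted state, had 288, 459, 591 and 301 in WT mice and 84.4, 156, 109 and 329 in MøFoxO1-KO mice. KO29 lay above WT22 and WT25, and KO26, KO27 and KO28 lay below all WT mice. The log2 fold change of Pdk4 was -1.28 (interval -2.18 to -0.38), short of the limit of 1.5, with an adjusted P of 0.183 (edgeR, Benjamini-Hochberg).

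Pklr (ENSMUSG00000041237, chromosome 3, 89136142 to 89146784) is the pyruvate kinase of liver and red blood cells. Its normalized counts were 1196, 3004, 917 and 690 in WT22 to WT25 and 1639, 483, 748 and 466 in KO26 to KO29. WT23 stood highest and KO26 next, and the highest liver had 6.45 times the level of the lowest, a wider ratio than 92.5% of tested genes had. Means were 1452 ± 1055 and 834 ± 552 (SD, n = 4 each, P = 0.429 by exact permutation). The log2 fold change of -0.80 (SE 0.51, 95% interval -1.94 to 0.35, edgeR, Benjamini-Hochberg adjusted P = 0.472) was -0.16 without WT23 and -1.36 without KO26. Red blood cell markers summed to 6293, 7502, 19415 and 23159 normalized counts in WT22 to WT25. In KO26 to KO29 the sums were 8268, 8410, 8037 and 16620. Whether Pklr varied with these sums was not tested. Counts were made per gene and do not separate the liver and red cell starts. Pklr also shares 711 exon bases with Hcn3 on the opposite strand, and the strand setting of the counting is not given in the sources used here. Hcn3 had at most 228 counts.

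Slc2a2 (ENSMUSG00000027690, chromosome 3, 28697903 to 28731359) codes for GLUT2, the glucose transporter of the hepatocyte membrane. WT22 to WT25 had 5470, 8238, 3813 and 3491 normalized counts, and KO26 to KO29 had 4858, 3940, 4266 and 2552. As for Pcx, WT23 and WT22 were highest and KO29 was lowest. Means were 5253 ± 2171 and 3904 ± 978 (SD, n = 4 each, P = 0.371 by exact permutation), with a log2 fold change of -0.43 (SE 0.29, 95% interval -1.06 to 0.21, edgeR, Benjamini-Hochberg adjusted P = 0.488) that was -0.13 without WT23.

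Khk (ENSMUSG00000029162, chromosome 5, 30921431 to 30931248) is ketohexokinase, the first enzyme of fructose use. Its normalized counts were 6939, 7574, 4412 and 6713 in WT22 to WT25 and 9290, 7321, 8396 and 6570 in KO26 to KO29. KO26 and KO28 were above every WT mouse, WT24 was below all others, and the other 5 mice lay between 6570 and 7574. Means were 6409 ± 1381 and 7894 ± 1195 (SD, n = 4 each), 1.23 times the WT level (P = 0.2 by exact permutation). The log2 fold change was 0.30 (SE 0.18, 95% interval -0.11 to 0.71, edgeR, Benjamini-Hochberg adjusted P = 0.446), above 0 in all 17 other fits. The counts sum the isoforms of Khk.

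Tkfc, which phosphorylates glyceraldehyde in fructose use, had 4081 ± 995 and 3242 ± 627 normalized counts (SD, n = 4 each), a log2 fold change of -0.33 with an interval of -0.76 to 0.10. Whether it differed from Khk was not tested. Gckr had 3235 ± 533 and 3451 ± 324 (SD, n = 4 each, 0.09, interval -0.23 to 0.41). Mlxipl had 4437 ± 1348 and 5019 ± 1549 (SD, n = 4 each, 0.18, interval -0.41 to 0.77). Of the enzymes of glycogen, Gys2, the liver synthase, had 2361 ± 441 and 2349 ± 337 (-0.01, interval -0.37 to 0.35), and Pygl, the liver phosphorylase, 4512 ± 2000 and 3901 ± 808 (-0.21, interval -0.83 to 0.41).

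**Figure D2:**
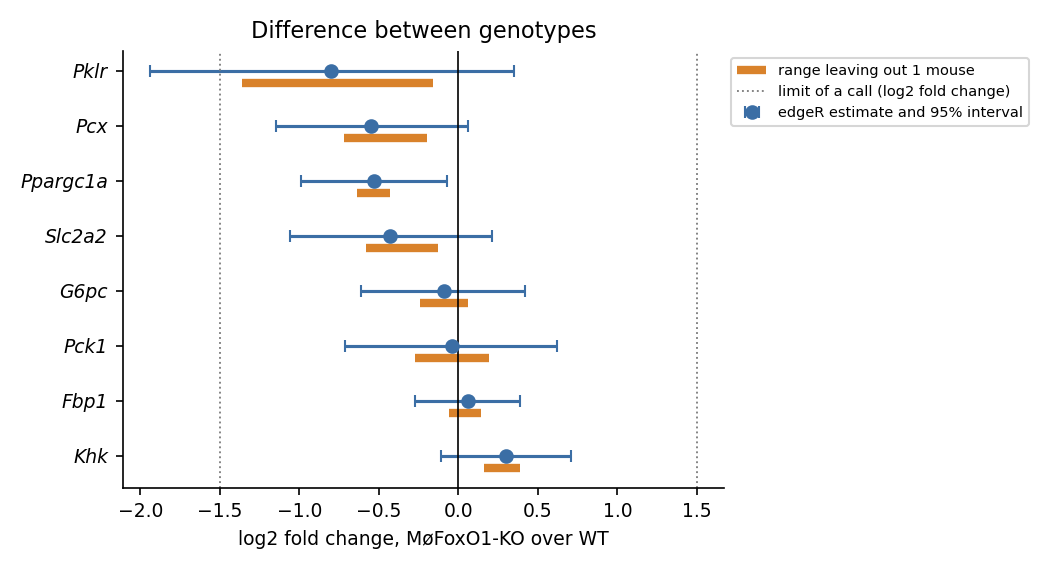
Log2 fold change of MøFoxO1-KO over WT (horizontal axis) for each of the 8 genes, with points and thin bars for the edgeR estimate and its 95% interval and thick bars for the range when each mouse is left out in turn. Only the interval of Ppargc1a (-0.99 to -0.07) excludes 0, and the dotted lines at 1.5 on either side mark the limit of a call.

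Per base of exon, the 8 genes spanned a wide range of levels. In RPKM (reads per kilobase of exon in a library of fixed size, here scaled by TMM), the medians over 8 mice were 464 for Fbp1, 337 for Pck1, 242 for Khk, 123 for Pcx, 87.6 for G6pc, 43.5 for Slc2a2, 15.7 for Pklr and 1.04 for Ppargc1a. Fbp1 was thus above 99.1% of tested genes and Ppargc1a above 25.8%. Neighbors in this order overlapped in their ranges over mice, except Pklr (8.77 to 56.6) and Ppargc1a (0.776 to 1.55). Within a mouse, Fbp1 was above Pck1 in 6 of 8 livers, Pck1 above Khk in 6, Khk above Pcx in 7 and Pcx above G6pc in 7.

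The mice with the highest and lowest levels were shared by several of the 8 genes. WT23 had the highest level of Pcx, Ppargc1a, Pklr and Slc2a2, and KO29 had the lowest level of the same 4 genes. For Ppargc1a both were near ties, with 168 normalized counts in WT23 and 166 in WT25, and 84 in KO29 and 86.3 in KO26. WT25 was highest and KO26 lowest for G6pc and Pck1. WT23 lay at one end of the first principal component (-50.37) and KO29 and KO27 at the other (31.99 each). Macrophage markers summed to 4537 normalized counts in WT23, the lowest of the 8 mice, and to 23034 in KO29, the highest. Their part in the pattern was not tested. Hepatocyte markers summed to 1367806, 1693292, 1227348 and 1410623 in WT22 to WT25, and to 1828236, 2163693, 1439052 and 1966697 in KO26 to KO29. Their part in the pattern was not tested either.

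**Figure D3:**
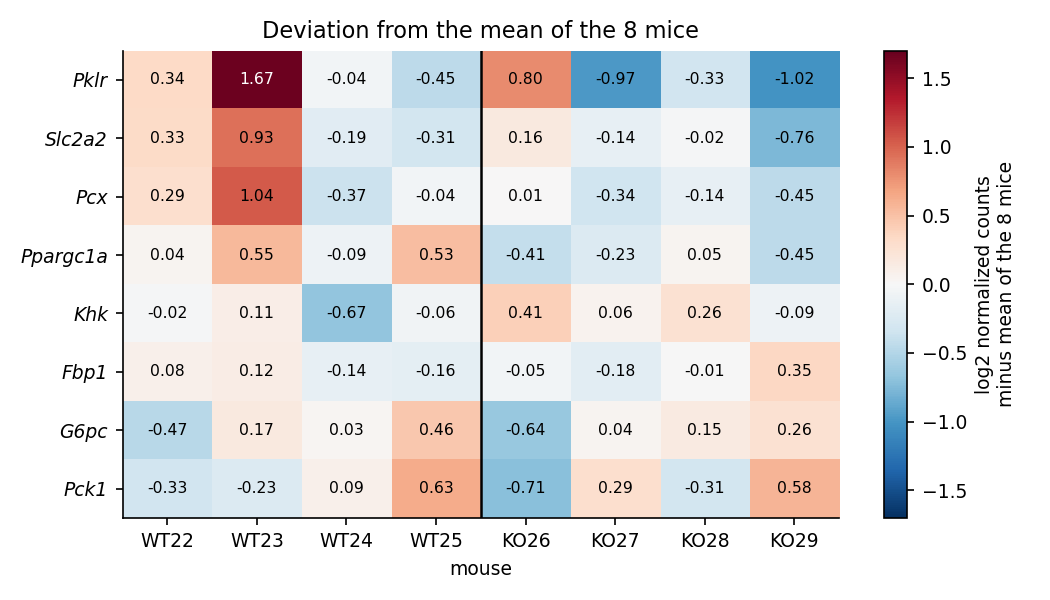
Log2 normalized counts of the 8 genes (rows) in each mouse (columns, WT to the left of the black line) as the difference from the mean of the 8 mice, by color and printed value. Pklr runs from 1.67 in WT23 to -1.02 in KO29, and G6pc and Pck1 are lowest in KO26 (-0.64 and -0.71).

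Correlations of log2 normalized counts were computed for the 28 pairs of the 8 genes over the 8 mice, with exact permutation tests over 40320 pairings and Benjamini-Hochberg adjustment over the 28. Pcx and Slc2a2 varied together, with Pearson r = 0.91 (P = 0.00146, adjusted 0.034) and Spearman rho = 0.86 (P = 0.0107, adjusted 0.15, exact permutation). So did Pklr and Slc2a2, with r = 0.90 (P = 0.00243, adjusted 0.034) and rho = 0.86 (P = 0.0107, adjusted 0.15, exact permutation), and Pcx and Pklr, with r = 0.88 (P = 0.00526, adjusted 0.0491) and rho = 0.81 (P = 0.0218, adjusted 0.152, exact permutation). These 3 pairs passed 0.05 after adjustment by Pearson's r, and no pair did by Spearman's rho. Without the 2 mice farthest from the median of the first gene, r over the other 6 was 0.65 (P = 0.151), 0.77 (P = 0.0708) and 0.67 (P = 0.144, exact permutation). The mice left out were WT22 and WT23 for the pairs of Pcx, and WT23 and KO26 for Pklr and Slc2a2. Without WT23 alone r was 0.79, 0.77 and 0.70, and for deviations from the group means it was 0.89, 0.88 and 0.84.

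The gluconeogenic pair G6pc and Pck1 had r = 0.79 (P = 0.0161, adjusted 0.113) and rho = 0.81 (P = 0.0218, adjusted 0.152, exact permutation), and r = 0.55 (P = 0.243, exact permutation) without WT22 and KO26. Pck1 ran against the glycolytic and transport genes, with r = -0.70 for Pklr (P = 0.053, adjusted 0.254, exact permutation) and rho = -0.74 (P = 0.0458, adjusted 0.214, exact permutation). For Pck1 and Slc2a2 r was -0.68 (P = 0.0576, adjusted 0.254) and rho -0.79 (P = 0.0279, adjusted 0.156, exact permutation). Without the 2 mice farthest from the median of Pck1, WT25 and KO29, r was -0.59 (P = 0.206) and -0.38 (P = 0.46, exact permutation). Neither pair passed the adjustment. Ppargc1a, known for raising Pck1 and G6pc, had r = 0.11 with Pck1 (P = 0.785, adjusted 0.92) and 0.46 with G6pc (P = 0.243, adjusted 0.681, exact permutation), with rho of 0.02 (P = 0.977) and 0.36 (P = 0.389, exact permutation).

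**Figure D4:**
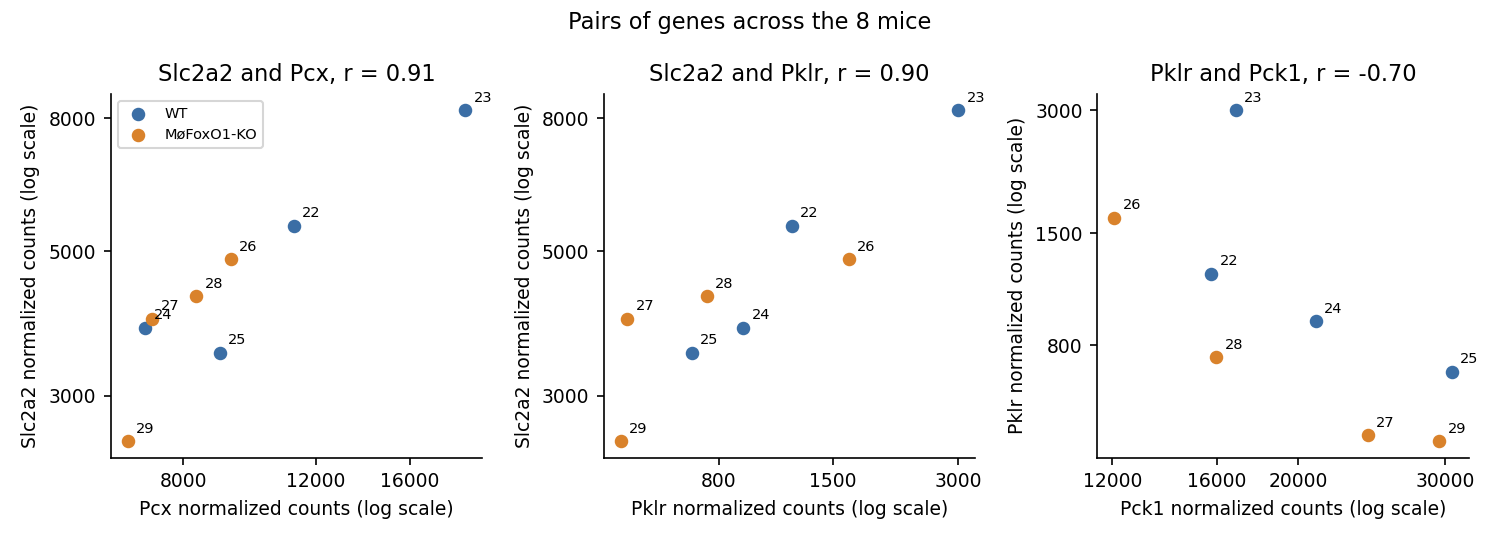
Normalized counts of 3 pairs of genes in the 8 livers (log axes, each point a mouse with its number, WT in blue and MøFoxO1-KO in orange). Slc2a2 rises with Pcx (r = 0.91) and with Pklr (r = 0.90), with WT23 at the upper right of both panels, and Pklr is lower where Pck1 is higher (r = -0.70).

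Ratios of enzymes that work against each other are given as the log2 ratio of their levels per base, as a description of the same values without a test. The Pklr to Pck1 ratio was -3.64, -2.40, -4.43 and -5.38 in WT22 to WT25 and -2.80, -5.57, -4.33 and -5.90 in KO26 to KO29. KO26 and WT23 had the most Pklr for their Pck1, and KO27 and KO29 the least. The Pfkl to Fbp1 ratio was narrow in WT mice, -5.51 ± 0.10, and -5.97 ± 0.36 in MøFoxO1-KO mice (SD, n = 4 each). KO26 (-5.57) fell among the WT mice, and KO27, KO28 and KO29 (-6.14, -5.79 and -6.38) lay below all of them.

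In 10 lists of sugar pathways and their control, 203 genes were counted, the 8 genes among them, and 189 were tested. None was called, and none reached an adjusted P of 0.05 in edgeR with Benjamini-Hochberg adjustment, as 0.294% of all tested genes did. An unadjusted P under 0.05 was found for 31 (16.4%, beside 16.7% of all tested genes), 24 of them lower and 7 higher in MøFoxO1-KO mice. By sign, 127 of 189 (67.2%) were lower, beside 51.7% of all tested genes, and the median log2 fold change was -0.14, beside -0.01. Total-count scaling, added after seeing the data, moves the median of all genes by -0.15.

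The 21 tested genes of the insulin- and sugar-induced list had the lowest median, -0.47, with 18 lower and 3 higher. Of them, 6 had an unadjusted P under 0.05, all lower (8.06% of all tested genes were lower at that P). Among these 6 was Pnpla2 (-0.32, unadjusted P = 0.0169 in edgeR), a lipase that insulin does not raise. The list median was -0.22 without WT23 and -0.04 with 1 surrogate variable in the fit. Within mice the median deviation of the listed genes was 0.85 in WT23 and between -0.38 and 0.33 in the other 7. Me1 is malic enzyme, which supplies NADPH for fat synthesis. It had 2532 ± 667 normalized counts in WT and 637 ± 498 in MøFoxO1-KO livers (SD, n = 4 each). Its log2 fold change was -1.99 (interval -3.02 to -0.96, edgeR, Benjamini-Hochberg adjusted P = 0.111). Acacb, the acetyl-CoA carboxylase that restrains fat oxidation, had 385 ± 239 and 144 ± 31.7 (log2 fold change -1.42, adjusted P = 0.134), and Pgd of the pentose phosphate pathway 551 ± 106 and 370 ± 56.4 (-0.57, adjusted P = 0.148). Pklr and Slc2a2 belong to this list, and so does Khk, which lay above 0.

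The 24 fasting-induced genes include Pck1, G6pc and Ppargc1a. They had a median of -0.20 (-0.40 with 1 surrogate variable in the fit), with 19 lower and 5 higher. Their median deviation was -0.59 in KO26, the mouse with the least G6pc and Pck1, and 0.33, 0.27 and 0.23 in WT25, WT24 and KO29. With Pdk4 and Ppargc1a, Creb3l3, a hormone-responsive liver factor, had the smallest P values of this list. Creb3l3 had 5319 ± 363 and 6592 ± 606 normalized counts (SD, n = 4 each, log2 fold change 0.31, adjusted P = 0.237 in edgeR with Benjamini-Hochberg).

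The 26 tested enzymes and shuttles of gluconeogenesis had a median of -0.04, with 15 lower and 11 higher. Gpt2, the mitochondrial alanine aminotransferase, had 8512 ± 4671 normalized counts in WT and 3883 ± 1573 in MøFoxO1-KO livers (SD, n = 4 each, log2 fold change -1.13, adjusted P = 0.195). Slc25a10, the dicarboxylate carrier, had a log2 fold change of -0.51 (adjusted P = 0.183), and Gpd1, which links glycerol to this path, -0.57 (adjusted P = 0.198, edgeR, Benjamini-Hochberg). Glycolysis, with 26 tested genes, had 13 on either side of 0 and a median of -0.03. Its smallest P values were those of Eno1 (-0.70, adjusted P = 0.131), Pfkm (-0.44, adjusted P = 0.232) and Pgam1 (-0.59, adjusted P = 0.25). Of the 11 tested genes of pyruvate dehydrogenase and its control, 9 were lower (median -0.27, but -0.10 both without WT23 and with 1 surrogate variable), among them Pdha1, a subunit of the enzyme (-0.78, adjusted P = 0.165), and its kinase Pdk1 (-0.46, adjusted P = 0.252).

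Of the 45 tested regulators, 30 were lower and 15 higher (median -0.11, and -0.06 without WT23), and those with the smallest P were Nr1h3, the liver X receptor (0.31, adjusted P = 0.212), Creb3l3 and Ep300, a histone acetyltransferase (-0.28, adjusted P = 0.237). The 23 tested glycogen genes had a median of -0.12 (16 lower, 7 higher). The smallest P there were those of Gsk3b, the kinase that inhibits glycogen synthase (-0.63, adjusted P = 0.175), Pygm (1.26, adjusted P = 0.225, at most 44 raw counts) and Stbd1 (0.27, adjusted P = 0.247). The 12 tested genes of the pentose phosphate pathway had a median of -0.17 (9 lower, 3 higher), which was -0.05 without WT23 and -0.01 with 1 surrogate variable, with Tkt at -0.48 (adjusted P = 0.233) and Pgls at 0.24 (adjusted P = 0.452) next to Pgd. The 9 tested sugar transporters had a median of -0.09 (5 lower, 4 higher). Slc2a5, the fructose transporter, had 83.8 ± 33.3 and 157 ± 67.2 normalized counts (SD, n = 4 each, 0.91, adjusted P = 0.253), Slc2a6 10.1 ± 5.68 and 24.3 ± 14.1 (1.25, adjusted P = 0.334) and Slc2a8 305 ± 12.1 and 352 ± 39.5 (0.20, adjusted P = 0.412). The 14 genes of fructose, galactose and polyol use had a median of -0.02 (9 lower, 5 higher). Akr1b3, aldose reductase, had 106 ± 12.5 and 170 ± 54.9 normalized counts (SD, n = 4 each, 0.69, adjusted P = 0.193). Galt (0.25, adjusted P = 0.346) and Pmm2 (0.20, adjusted P = 0.316) followed. All adjusted P values here are from edgeR with Benjamini-Hochberg adjustment over 13278 genes. Of the genes named from the lists for their small P, Me1, Acacb, Gpt2, Gpd1, Eno1, Pdha1, Gsk3b and Ep300 were lower without overlap of the groups. Creb3l3, Nr1h3, Akr1b3, Stbd1 and Pmm2 were higher without overlap. The groups did not overlap for 9.71% of all tested genes.

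**Figure D5:**
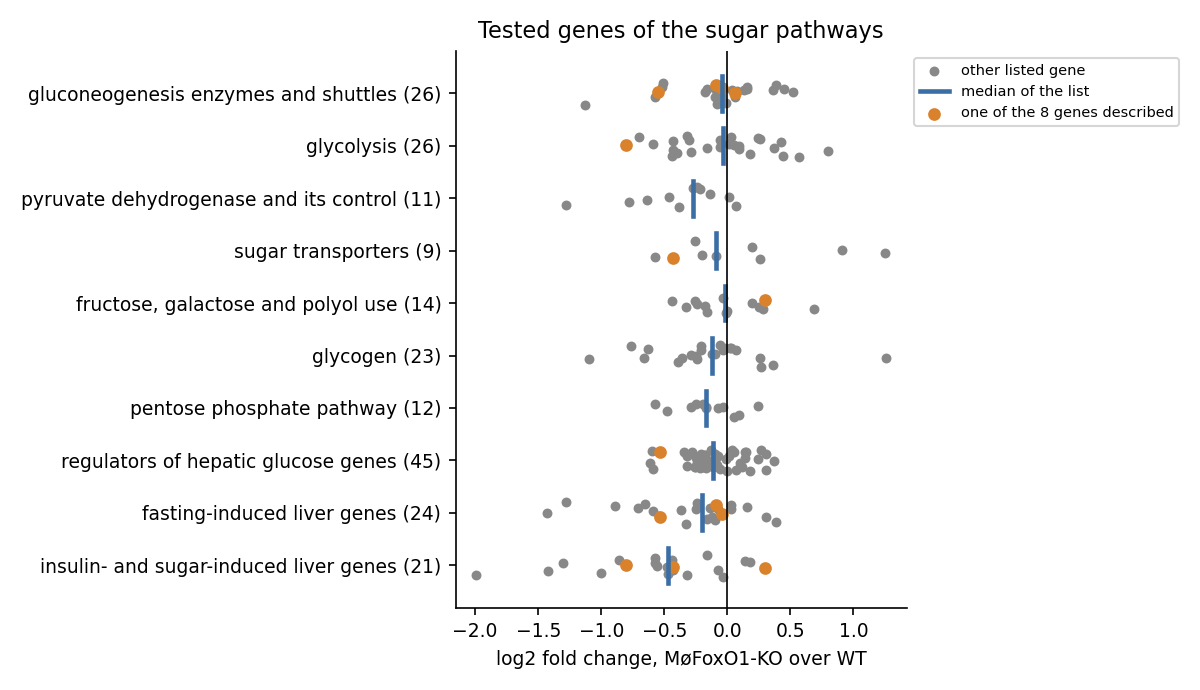
Log2 fold change of MøFoxO1-KO over WT (horizontal axis) for the tested genes of 10 lists (vertical axis, number tested in parentheses), with grey points for listed genes, orange points for the 8 genes described and blue bars for the median of each list. Medians run from -0.47 for the insulin- and sugar-induced list to -0.02 for fructose, galactose and polyol use.

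For each of the 8 genes, the 3 tested genes most like it across mice were taken by Pearson r of log2 normalized counts among 13277 others, as a description without a test. With 13277 genes compared over 8 mice, each of the 8 genes had close matches. The closest to Pcx was Coasy (r = 1.00), then Ugt1a5 and Gfm2 (0.99 each). For Slc2a2 they were Ccser2, Fasn and Ndc1 (0.98 each), and for Pklr Rnf4, Fbxw8 and Dnajc5 (0.98 each). Fasn is fatty acid synthase, another gene of the insulin- and sugar-induced list. G6pc was followed by Zfp872 (0.99), Phf21b (0.98) and Igfbp6 (0.94), and Pck1 by Gin1 (0.96), Ctcflos (0.95) and Dmtf1 (0.94). Those nearest Fbp1 were Gpc6 and Pcdh18 (0.96 each) and Sp140 (0.91), those nearest Ppargc1a Dand5 (0.97) and Nmt2 (0.96), and those nearest Khk Gamt, Smpd1 and Dexi (0.96 each). The smallest adjusted P of these genes between the genotypes was 0.248, for Nmt2 (edgeR, Benjamini-Hochberg).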

How the data were processed

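Polyadenylated RNA of whole liver from 8 mice, 4 per genotype, was sequenced by the study. Read counts per Ensembl gene were deposited by the authors as 1 table, with exon coordinates on GRCm38, without normalization and without pooling. The submitters' processing notes name STAR, featureCounts and mm10, and versions and the strand setting are not given in the sources used here. Symbols came from GENCODE M21 (46005 of 46517 genes matched). Total counts of 15253218 to 18025481 limit the precision of genes with few counts, and PCR copies were not separated by molecular identifiers. Groups were taken from the genotype labels, and chi-square values of 29.42 or more per gene between mice of a group showed no library deposited more than once within a group. Mice of different groups were not compared in this way. Genes were kept by filterByExpr (minimum count 10, minimum total 15), normalized with TMM factors and compared in R 4.3.3 by edgeR 4.0.16 (glmQLFTest, genotype as the one term), with P values adjusted by Benjamini-Hochberg over 13278 genes. The limits of a call follow the study. Exact permutation tests used scipy 1.17.1, and log2 levels used a pseudocount of 0.5. Alternatives were DESeq2 1.42.0, its size factors, upper-quartile factors, limma-voom (limma 3.58.1), no filter, a filter of 10 counts in each mouse, the robust option, 1 surrogate variable (sva 3.50.0), other limits, leaving out each mouse and, added after seeing the data, total counts. The methods were tested on simulated data. Tables were handled with numpy 2.4.6 and pandas 2.3.3 (Python 3.11.15), and figures were drawn in matplotlib 3.10.9. Promoter windows are from RefSeq on GRCm38.p6. The genes named are the 8 genes, Foxo1, 14 partner enzymes and regulators, any listed gene with an adjusted P under 0.05 and the 3 with the smallest P in each of 10 lists, and the 3 genes most like each of the 8 across mice. Single macrophage, zone and stellate cell markers were named after their values were seen. Pfkl and the enzyme ratios, and Hcn3, were added after their values were seen. Results of 3 further genes under this rule are not reported here. The genes and lists were chosen with earlier results of these data known.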

Additional observations from a re-analysis of the deposited data

How the results depend on the processing

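None of the 8 genes was called in any of 17 other fits, and the smallest adjusted P of any of them was 0.117 (Ppargc1a with total counts; edgeR, Benjamini-Hochberg). Log2 fold changes of Pcx, Ppargc1a and Khk kept their sign in all 17, between -0.72 and -0.04, -0.67 and -0.40, and 0.16 and 0.52. The others changed sign in places, and the cause was not tested. With 1 mouse left out, G6pc ran from -0.24 to 0.06 (0.05 without WT25, 0.06 without KO26), Pck1 from -0.27 to 0.19 (0.19 without WT25, 0.14 without KO26, 0.08 without KO28) and Fbp1 from -0.06 without KO29 to 0.14. Fbp1 was -0.09 with total counts, where the median of all genes shifts by -0.15. With 1 surrogate variable, which weighs WT23 most (0.8138), Pklr was 0.02, Slc2a2 0.04 and Pcx -0.04. The sign of Pcx was thus kept only narrowly there. In the same fit Pck1 moved from -0.04 to -0.40, G6pc from -0.09 to -0.20 and Khk from 0.30 to 0.52. Ppargc1a was -0.40 and Fbp1 0.09. The count of called genes over the whole table, 25, was 177 in DESeq2, 120 without a filter, 13 in limma-voom, 39 at an adjusted P under 0.05 and 138 at one under 0.1 at any fold change, and 3 (without WT25) to 82 (without KO28) with 1 mouse left out. At an unadjusted P under 0.05, DESeq2 gave Ppargc1a and Pcx (10.5% of all its genes), and limma-voom Ppargc1a alone (16.1%). Total-count scaling moved the medians of all 10 lists down, such as gluconeogenesis to -0.20 and glycolysis to -0.19. Glycolysis was at -0.18 without KO29. No paired analysis was possible because the labels give the mice of the groups no shared replicate numbers. With 4 mice a group, the 95% intervals span 0.83 to 1.31 times the WT level for Fbp1 and 0.26 to 1.27 times for Pklr. Differences of a size inside these intervals are not excluded by the data.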

Other observations

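Glucose production is strongest in hepatocytes near the portal vein, so markers of liver zones were also counted. Of 11 periportal markers, a list that holds Pck1, 8 were higher and 3 lower in MøFoxO1-KO mice (median log2 fold change 0.15), with a summed level of 757188 to 1249886 normalized counts in WT livers and 848366 to 1236505 in MøFoxO1-KO livers. Of 11 pericentral markers, 5 were higher and 6 lower (median -0.04), with sums of 227928 to 331836 and 252693 to 320740. In edgeR with Benjamini-Hochberg adjustment, no marker of either zone passed 0.05, and 3 of the 22 had an unadjusted P under 0.05, as 16.7% of all tested genes did. They were periportal Cyp2f2 (log2 fold change 0.71, adjusted P = 0.274) and pericentral Cyp1a2 (0.61, adjusted P = 0.25) and Slc1a2 (-1.03, adjusted P = 0.12), named after their values were seen. All 10 endothelial markers were higher (median 0.23) and all 7 tested cholangiocyte markers lower (median -0.23), and none of those passed. Of 11 stellate cell and myofibroblast markers, 5 were higher and 6 lower (median -0.06), and 3 had an unadjusted P under 0.05, all of them collagens and lower. They were Col1a1 (-1.28, adjusted P = 0.193), Col1a2 (-0.76, adjusted P = 0.264) and Col3a1 (-0.76, adjusted P = 0.25), also named after their values were seen.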
